A study of Homo sapiens with 4 samples.

Results

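This report concerns open chromatin around 8 genes of the transfer RNA (tRNA) charging machinery in human HCT116 colorectal cancer cells. AARS, GARS, SARS, NARS, WARS, EPRS and CARS encode aminoacyl-tRNA synthetases, and XPOT encodes exportin-T, which is not a synthetase but carries tRNAs out of the nucleus. The genes were chosen by name. Peaks belonged to a gene when their midpoint lay within 20 kb of its hg19 transcription start, and to its promoter when it lay within 2 kb. By this rule 103 of the 234140 peaks in the 4 lists were taken, and they merged into 34 of 78788 regions, 19 of them at promoters. Each of the 8 genes had at least 1 promoter region that every library listed.

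The assay was ATAC-seq: a transposase inserts sequencing adapters into DNA that is not packed away, so reads pile up at accessible sites. Wild-type HCT116 cells in 2 groups were compared, with 2 libraries each. The tunicamycin group was treated with 0.5 µg/ml tunicamycin for 6 h, and the DMSO group with 0.1% DMSO for 6 h. Libraries were made from 50000 cells, and the replicates are described as biological, with no statement of separate cultures. Where the cultures were shared, p-values measure only the spread between these libraries.

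Aminoacyl-tRNA synthetases join each amino acid to its tRNA and so supply every protein synthesis reaction. Tunicamycin blocks N-glycosylation, and the unfolded proteins that result activate the kinase PERK, phosphorylation of eIF2alpha and translation of the transcription factor ATF4. Many cytosolic synthetase genes are known targets of ATF4, which binds the C/EBP-ATF response element together with C/EBP partners. Synthetases fall into 2 structural classes. The alanyl, glycyl, seryl and asparaginyl enzymes share one fold, the tryptophanyl and cysteinyl enzymes share the other, and EPRS joins a glutamyl and a prolyl enzyme in a single protein. GARS supplies both the cytosolic and the mitochondrial glycyl enzyme.

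The promoter sequences that hold the core of the C/EBP-ATF response element are shown because that element is the known link between ER stress and synthetase genes. RefSeq promoters on GRCh38.p14, from 250 bases before to 50 after each start, were matched for all 8 genes (12 promoters, since GARS1, SARS1, WARS1 and CARS1 have more than 1 start; AARS is named AARS1 there, and likewise for the other synthetases). The core TGATGNAA was searched on both strands and is in capitals. It was found in 4 of the 12 promoters, 1 each for AARS1, GARS1, NARS1 and CARS1, and in 3.62% of the 35116 promoters of the table. The AARS1 promoter is chr16:70289457-70289756 (minus strand), that of GARS1 at its more downstream start is chr7:30594628-30594927 (plus strand), that of NARS1 is chr18:57621787-57622086 (minus strand) and that of CARS1 is chr11:3057374-3057673 (minus strand).
AARS1: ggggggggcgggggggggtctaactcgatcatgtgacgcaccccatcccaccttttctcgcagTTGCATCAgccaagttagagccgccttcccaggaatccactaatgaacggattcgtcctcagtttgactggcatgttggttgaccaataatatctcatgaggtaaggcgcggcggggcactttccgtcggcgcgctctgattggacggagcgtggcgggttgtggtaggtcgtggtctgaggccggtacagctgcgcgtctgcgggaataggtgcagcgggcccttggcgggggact
GARS1: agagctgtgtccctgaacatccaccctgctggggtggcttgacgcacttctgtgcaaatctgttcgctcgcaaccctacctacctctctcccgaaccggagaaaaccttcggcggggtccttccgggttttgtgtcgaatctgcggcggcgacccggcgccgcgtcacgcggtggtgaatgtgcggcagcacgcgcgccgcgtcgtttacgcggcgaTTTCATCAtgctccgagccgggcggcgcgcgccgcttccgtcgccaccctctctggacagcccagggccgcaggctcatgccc
NARS1: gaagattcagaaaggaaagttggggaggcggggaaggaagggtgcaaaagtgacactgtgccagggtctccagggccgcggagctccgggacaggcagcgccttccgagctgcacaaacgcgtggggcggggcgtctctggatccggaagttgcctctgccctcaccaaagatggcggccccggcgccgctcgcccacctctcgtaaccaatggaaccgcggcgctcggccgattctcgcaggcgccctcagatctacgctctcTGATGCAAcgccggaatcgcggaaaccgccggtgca
CARS1: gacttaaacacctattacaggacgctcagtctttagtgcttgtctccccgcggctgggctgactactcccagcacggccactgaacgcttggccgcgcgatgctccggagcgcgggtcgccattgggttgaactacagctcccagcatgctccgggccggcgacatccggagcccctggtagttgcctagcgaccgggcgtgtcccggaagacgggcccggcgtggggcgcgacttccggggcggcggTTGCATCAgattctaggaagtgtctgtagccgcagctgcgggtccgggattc

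AARS1 and CARS1 carry the match as TTGCATCA on the printed strand, and NARS1 as TGATGCAA. GARS1 carries TTTCATCA. The matches begin at -187 in AARS1, -33 in GARS1, -2 in CARS1 and 14 in NARS1, counted in bases from the start base at 0. No promoter of SARS1, WARS1, EPRS1 or XPOT held these letters. The full palindrome of the cAMP response element, TGACGTCA, was in none of the 12, and in 1.85% of all promoters. The GC box GGGCGG was in 9 of the 12 (45.0% of all promoters), with 3 matches in XPOT. The CCAAT box, CCAAT or its complement, was in 5 of the 12 (34.6% of all), namely those of AARS1, NARS1, CARS1 and both of WARS1. Matches are letters in a window and were not tested for binding. The peaks are on hg19 and these sequences on GRCh38.p14, so that a peak cannot be placed on them base by base. Peak distances below count from the hg19 start of each gene, and motif positions from the RefSeq start. These starts need not be the same base, so the distances cannot be set against each other.

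Each of the 8 genes had at least 1 promoter region listed in all 4 libraries. No promoter region of this kind differed between tunicamycin-treated and control cells beyond the test's threshold. The test took only regions that all 4 libraries listed, 10 of the 19 promoter regions, so the others could not be called. To set libraries of unknown depth on one scale, the 40447 regions listed by all 4 were ranked within each library by the authors' q-value, so that 0 is the weakest and 100 the strongest. Normal scores of the ranks were compared with limma, with p-values adjusted over all 40447 regions. Of the 20 common regions near the 8 genes, 10 of them at promoters, 0 were called at an adjusted p of 0.05, where 0.0519% of all common regions were called (14 higher and 7 lower). That split rests on single libraries: it was 0 higher and 4 lower without tunicamycin replicate 1, 1 and 12 without tunicamycin replicate 2, 18 and 5 without DMSO replicate 1, and 25 and 2 without DMSO replicate 2. At an unadjusted p under 0.05 lay 2 of the 20, against 7.33% of all common regions. The median score difference was -0.0808 over the 20 and 0.00044 over all common regions. The median standard error over all common regions was 0.379 score units, which limits what 2 libraries a group can show.

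**Figure D1:**
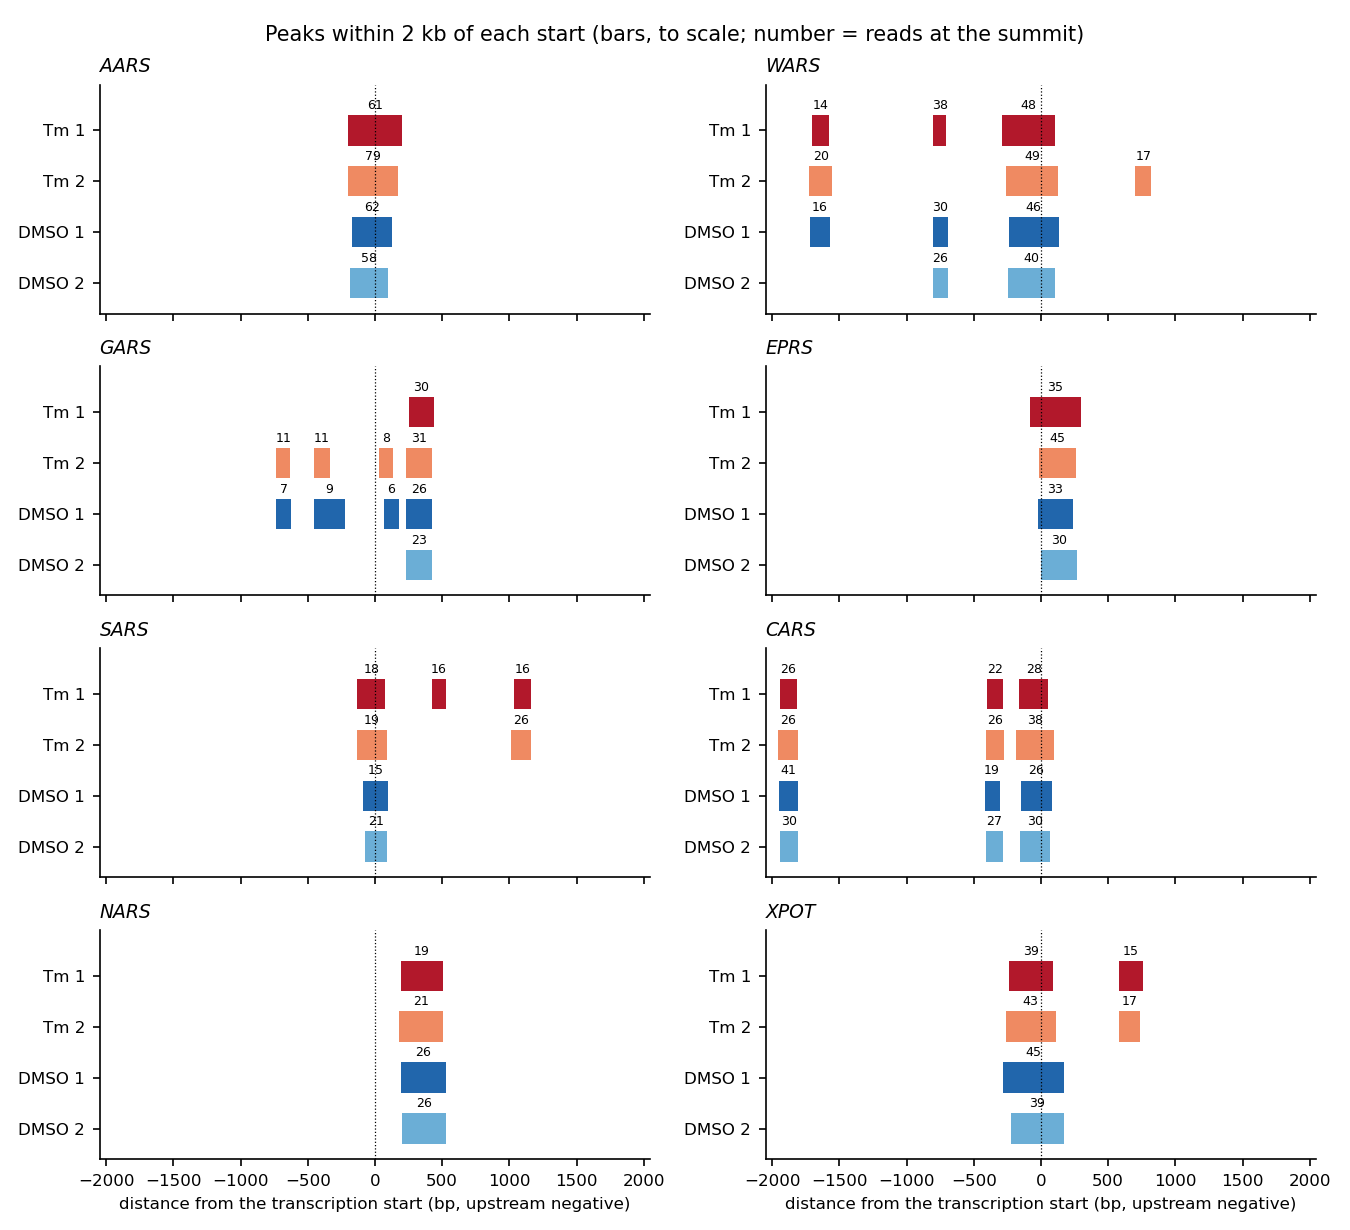
Peaks within 2 kb of the 8 starts in each library (rows), drawn to scale against the distance from the start in bp, upstream negative, with the reads at the summit above each bar. The main promoter peak of a gene is the strongest of those listed in all 4 libraries. SARS and XPOT each had a further downstream peak that only the tunicamycin lists held.

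AARS, the alanyl enzyme, had the strongest promoter of the 8. Its peak carried 61 and 79 reads at the summit in tunicamycin replicates 1 and 2, and 62 and 58 reads in DMSO replicates 1 and 2. These summit reads were worked out from the authors' fold and p-value, which are the peak's own values within its library, and they are not scaled for depth. It ranked at 98.2 and 99.3 after tunicamycin and 98.9 and 97.9 after DMSO, so that the groups overlapped at the top of the scale (score difference 0.110 ± 0.246, SE, limma adjusted p = 0.970). The 4 summits lay between -37 and -4 bp of the start. The peak was 403 and 373 bp wide after tunicamycin and 298 and 281 bp wide after DMSO, and was thus wider in both tunicamycin lists, a difference that was not tested. The regional background around it, described below for all genes, was also higher in both tunicamycin lists.

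GARS, the glycyl enzyme, had its strongest region downstream of the start, with summits between 348 and 364 bp. It carried 30 and 31 reads after tunicamycin and 26 and 23 reads after DMSO. Its ranks were 79.5 and 73.4 after tunicamycin and 70.2 and 62.1 after DMSO, so both treated libraries lay above both controls (score difference 0.304 ± 0.319, SE, limma adjusted p = 0.903). The reads separated the groups too, but they come from the same peaks' own values as the ranks and are no separate measurement. The rank difference was within its error. The other 3 GARS regions lay upstream of and just after the start, with summits at -722, -439 and 109 bp in DMSO replicate 1. Each was listed by tunicamycin replicate 2 and DMSO replicate 1 alone, with 11, 11 and 8 reads in tunicamycin replicate 2 and 7, 9 and 6 reads in DMSO replicate 1. They were weak sites, and each was found in one library of either group.

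SARS, the seryl enzyme, had the weakest main promoter peak of the 8 and a separate tunicamycin peak downstream of it. The main promoter region of a gene was chosen as the strongest of those that all 4 libraries listed. The peak at the start carried 18 and 19 reads after tunicamycin and 15 and 21 reads after DMSO. It ranked at 34.9 and 25.9 after tunicamycin and 29.3 and 52.4 after DMSO, with overlapping groups (score difference -0.275 ± 0.417, SE, limma adjusted p = 0.945). Downstream, at 109757525 to 109757679 on chromosome 1 (hg19), a region was listed after tunicamycin in each replicate and after DMSO in none. Its summits lay at 1125 and 1120 bp and carried 16 reads in tunicamycin replicate 1 and 26 in replicate 2, over peaks of 122 and 155 bp. The authors' fold over local background was 9.37 and 13.5. In tunicamycin replicate 2 this region carried more reads than the peak at the start (26 against 19), and in replicate 1 fewer (16 against 18). One more SARS promoter peak, at 480 bp, was listed by tunicamycin replicate 1 alone with 16 reads and a width of 103 bp.

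NARS, the asparaginyl enzyme, had the promoter with the widest gap between the groups in rank among the 8 main promoters. The peak carried 19 and 21 reads after tunicamycin and 26 reads in each DMSO library. It ranked at 40.9 and 39.6 after tunicamycin and 67.2 and 69.3 after DMSO, so both treated libraries lay below both controls and replicates of a group lay close together. The mean rank was 40.2 ± 0.882 after tunicamycin and 68.3 ± 1.53 after DMSO (SD, n = 2 each). The score difference was -0.722 ± 0.359 (SE, limma adjusted p = 0.675), so it was not called, although it was one of the pair below 0.05 before adjustment. The peak was equally broad in the 4 libraries, at 315 and 331 bp after tunicamycin and 331 and 328 bp after DMSO. Its summits lay downstream of the start, at 378 and 460 bp after tunicamycin and 380 and 357 bp after DMSO.

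**Figure D2:**
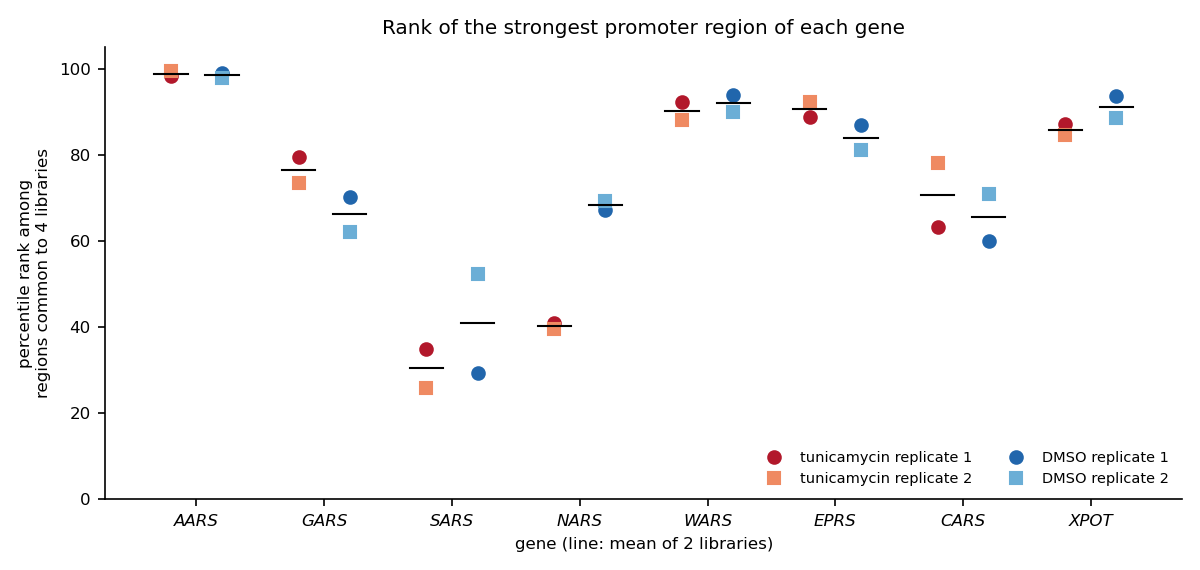
Percentile rank of the main promoter region of each gene among the 40447 regions common to the 4 libraries, with 1 point per library and a line at the mean of each group of 2. The main region is the strongest promoter region that all 4 libraries listed. Both tunicamycin points lie above both DMSO points for GARS and EPRS and below them for NARS and XPOT, and the groups overlap for AARS, SARS, WARS and CARS.

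WARS, the tryptophanyl enzyme and also a well-known interferon-gamma target, had 4 promoter regions. The strongest lay just upstream of the start, with summits between -161 and -153 bp, and carried 48 and 49 reads after tunicamycin and 46 and 40 reads after DMSO. Its ranks of 92.1 and 88.1 after tunicamycin overlapped those of 93.9 and 89.9 after DMSO (score difference -0.112 ± 0.274, SE, limma adjusted p = 0.973). A narrow region near -758 bp had 38 reads in tunicamycin replicate 1, and 30 and 26 reads in the DMSO libraries. Tunicamycin replicate 2 did not list it, although it was listed at percentile 85.9 of tunicamycin replicate 1. The listed peaks there were 102, 107 and 110 bp wide, and the smallest width in each list was 100 bp; whether that limit dropped the peak was not tested. A weaker region at -1614 to -1640 bp was listed by both tunicamycin libraries, with 14 and 20 reads, and by DMSO replicate 1 with 16 reads. A last one at 774 bp was found in tunicamycin replicate 2 alone, with 17 reads.

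EPRS, the fused glutamyl-prolyl enzyme of the multisynthetase complex, had a single region in the whole 40 kb. It carried 35 and 45 reads after tunicamycin and 33 and 30 reads after DMSO. Its ranks were 88.8 and 92.2 after tunicamycin and 86.8 and 81.0 after DMSO, again with both treated libraries above both controls (score difference 0.320 ± 0.282, SE, limma adjusted p = 0.870). The difference was close to its standard error and to that of GARS, and leaving out single libraries moved it between 0.201 and 0.440. The summits lay between 57 and 104 bp downstream of the start.

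CARS, the cysteinyl enzyme, had 3 promoter regions that all libraries listed. The strongest had a mean percentile of 77.2 over the 4 lists, close to 75.7 for the upstream region described below. The strongest region carried 28 and 38 reads after tunicamycin and 26 and 30 reads after DMSO. Its ranks were 63.3 and 78.1 after tunicamycin and 60.0 and 70.8 after DMSO. The groups overlapped (score difference 0.157 ± 0.328, SE, limma adjusted p = 0.966), as they did at a narrow region between -355 and -323 bp, where the ranks were 41.5 and 45.6 after tunicamycin and 31.8 and 62.1 after DMSO. The upstream region at 3080489 to 3080641 on chromosome 11 (hg19) had the most negative rank difference of the 20 common regions. Its summits, between -1884 and -1846 bp, carried 26 reads in each tunicamycin library and 41 and 30 reads after DMSO. It ranked at 56.3 and 45.5 after tunicamycin and 90.6 and 70.0 after DMSO, so the groups did not overlap, but the controls lay far apart. The score difference was -0.899 ± 0.33 (SE, limma adjusted p = 0.478), so this region, the other of the pair below 0.05 before adjustment, was not called either.

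XPOT, the tRNA exporter, had a strong promoter peak and a gained peak downstream. The promoter peak carried 39 and 43 reads after tunicamycin and 45 and 39 reads after DMSO, over widths of 325 and 374 bp after tunicamycin and 453 and 399 bp after DMSO. Its ranks of 87.0 and 84.6 after tunicamycin lay below those of 93.7 and 88.5 after DMSO (score difference -0.290 ± 0.280, SE, limma adjusted p = 0.888). The peak ranked lower in both treated libraries, within the error of the test, and was narrower in both, a difference that was not tested. Downstream, at 64798711 to 64798887 on chromosome 12 (hg19), both tunicamycin libraries and neither DMSO library listed a region. Its summits lay at 646 and 648 bp and carried 15 and 17 reads, with folds of 7.33 and 7.36 over local background. The 2 tunicamycin summits were thus 2 bp apart and nearly equal in height.

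These downstream regions of SARS and XPOT were the 2 gained regions among the 34, and 0 were lost. Gained means a peak in both tunicamycin lists and in neither DMSO list, and lost the reverse. Over all regions 3.65% were gained and 1.86% lost, so 2 of 34 (5.88%) and 0 of 34 are near the background. Without tunicamycin replicate 1, where a peak in the one other tunicamycin list was enough, 6 of 33 regions near the genes were gained (18.2%), and so were 12% of all regions. With 2 libraries a group, presence in a list allows no test of a single region. Absence from a list means that the caller passed no peak, not that reads were absent. In both DMSO lists, peaks whose local background was within 10% of that around the SARS promoter had at least 5 summit reads. Those like XPOT had at least 7 reads in DMSO replicate 1 and 6 in replicate 2. The 5th percentile of summit reads was 8 in both DMSO replicates for peaks like SARS. For peaks like XPOT it was 11 in replicate 1 and 10 in replicate 2. Several reads may thus lie unlisted in the DMSO libraries. The gained regions stood at percentiles 42.2 and 69.1 (SARS) and 27.9 and 29.8 (XPOT) of tunicamycin lists 1 and 2.

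**Figure D3:**
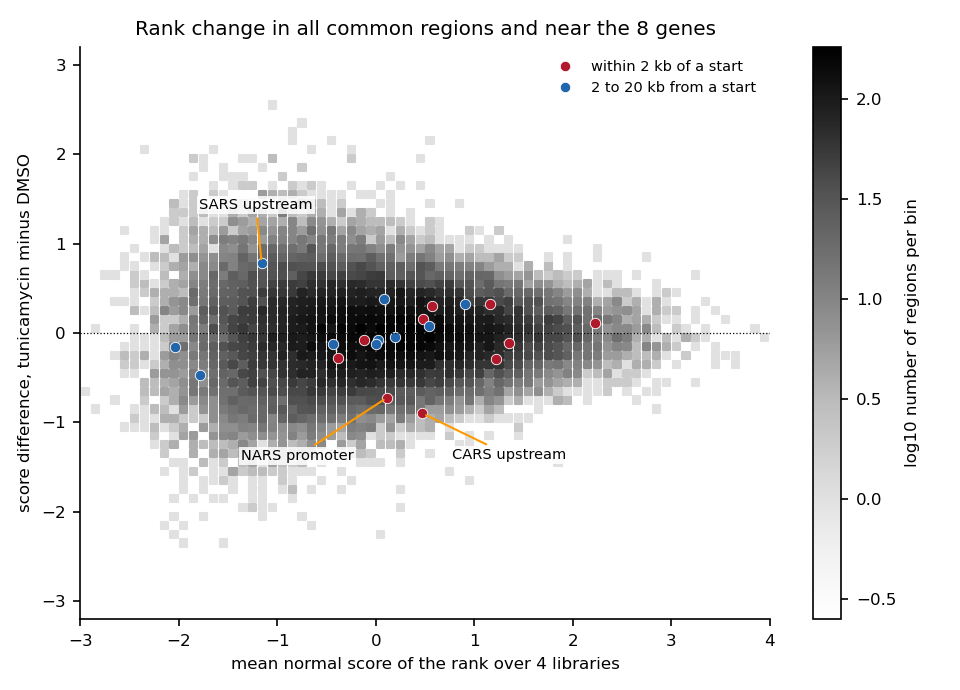
Score difference in rank, tunicamycin minus DMSO, against the mean normal score over 4 libraries; grey squares are bins of all 40447 common regions, red points the 10 promoter regions and blue points the 10 regions 2 to 20 kb from a start. The named points reach -0.899 (CARS upstream region), -0.722 (NARS promoter) and 0.780 (SARS upstream region), inside the cloud of all regions.

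Ranks separated the groups about as often near these genes as elsewhere. In 4 of the 20 common regions (20%) the lower tunicamycin rank exceeded the higher DMSO rank, as it did in 18.0% of all common regions. In another 4 (20%) the order was the opposite, against 18.3% of all. Of the 10 common promoter regions 20% lay higher after tunicamycin and 30% lower. Of the 10 common distal regions 20% lay higher and 10% lower. The 4 higher regions were the GARS and EPRS promoters and distal regions of AARS and SARS, and the 4 lower ones were the NARS and XPOT promoters, the upstream CARS promoter region and a distal XPOT region. Of the 8 main promoters 4 had positive and 4 negative score differences, with a median of -0.00111. The upstream CARS promoter region (-0.899) is not among these 8. Regions within 20 kb were listed by every library in 20 of 34 cases (58.8%), beside 51.3% of all regions.

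Outside the promoters there were 15 regions, of which 10 were common to the 4 libraries, 0 gained and 0 lost. AARS had 3 upstream. The one farthest from its start, between -15772 and -15725 bp, carried 19 and 17 reads after tunicamycin and 15 and 13 reads after DMSO, and ranked at 67.0 and 54.3 after tunicamycin and 51.3 and 39.9 after DMSO (score difference 0.385 ± 0.364, SE, limma adjusted p = 0.885). Both treated libraries lay above both controls. A neighbouring site, between -9661 and -9615 bp, varied most between replicates of a group among the 20: it ranked at 45.5 and 53.4 after tunicamycin but at 22.9 and 81.0 after DMSO. The reads were 17 and 21 after tunicamycin and 12 and 27 after DMSO, so the controls bracketed the treated libraries.

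SARS had the region with the most positive rank difference of the 20, at 109743876 to 109744063 on chromosome 1 (hg19). This upstream region, with summits between -12583 and -12542 bp, carried 19 and 15 reads after tunicamycin and 11 and 10 reads after DMSO. It ranked at 36.8 and 11.4 after tunicamycin and 8.95 and 3.96 after DMSO, with no overlap but a wide spread within the tunicamycin group. The score difference of 0.780 ± 0.513 (SE, limma adjusted p = 0.804) was not called. A stronger SARS site near -16339 bp ranked at 70.0 and 42.6 after tunicamycin and 49.4 and 67.3 after DMSO, with overlapping groups.

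Among the other distal sites 1 separated the groups. At XPOT a weak region between -11970 and -11912 bp had 5 and 6 reads after tunicamycin and 5 and 8 reads after DMSO, and ranked at 2.19 and 2.14 after tunicamycin and 2.3 and 13.6 after DMSO. It separated the groups by a small margin, and 5 to 8 reads give it little precision. The distal regions of NARS (near -8093 bp), WARS (near -7550 bp) and CARS (between 7397 and 7449 bp) had overlapping ranks with adjusted p-values of 0.983, 0.982 and 0.879 by limma. The CARS site had the highest mean percentile of the distal ones, with 36 and 33 reads after tunicamycin and 23 and 31 reads after DMSO. The distal regions listed by fewer libraries were weak: 1 was found in tunicamycin replicate 2 alone at each of NARS, CARS and XPOT, 1 in DMSO replicate 2 alone at SARS, and 1 at SARS in tunicamycin replicate 2 and DMSO replicate 1. A further weak common region lay between -10029 and -9955 bp of AARS, with 8 and 7 reads after tunicamycin and again 8 and 7 reads after DMSO. The outermost CARS region lay on the 20 kb limit: its peak in tunicamycin replicate 2 was inside, with a midpoint 19997 bp from the start, and its peak in DMSO replicate 1 was outside, at 20007 bp. It was kept with all 4 peaks, which had folds of 16.3 and 19.7 after tunicamycin and 15.7 and 16.4 after DMSO.

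**Figure D4:**
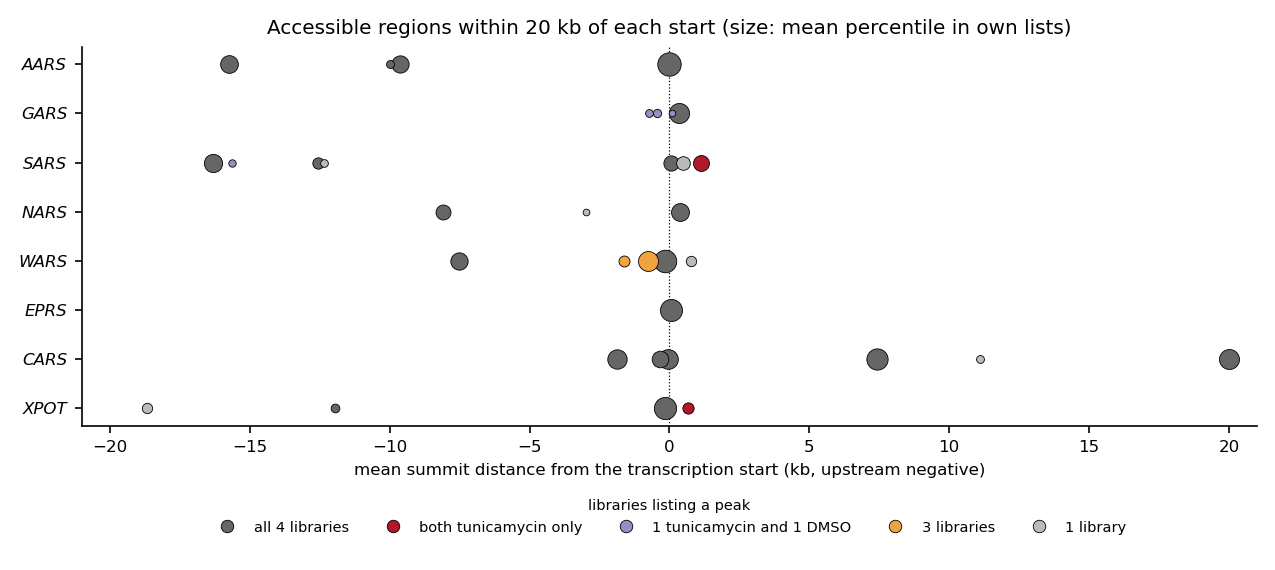
Accessible regions within 20 kb of the 8 starts, at the mean distance of their summits in kb, upstream negative; colour gives the libraries that listed a peak and size the mean percentile in their own lists. The 2 gained regions (red) lie downstream of SARS and XPOT, and EPRS has its promoter region alone.

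The number of peaks near the genes overlapped between the groups, and 2 libraries against 2 cannot settle whether it differed. There were 25 and 31 peaks after tunicamycin and 25 and 22 after DMSO, a mean of 28.0 ± 4.24 and 23.5 ± 2.12 (SD, n = 2 each). A two-sided exact permutation test gave p = 0.667, and no smaller p than 0.33 is possible in this design. The groups no longer overlapped, and the exact permutation p was at that floor, with peaks of a −log10 q-value of at least 5 (means 26.5 after tunicamycin and 21.5 after DMSO) or at least 10 (means 21 and 18), and in windows of 50 kb (56.0 and 47.5). The highest count came from tunicamycin replicate 2, which also had the longest list (62526 peaks, against 58467 in the other tunicamycin list and 56581 and 56566 in the DMSO lists). With the lists cut to equal length the means were 25.5 after tunicamycin and 23.5 after DMSO, a difference of 2 in place of 4.5. AARS and EPRS had the same number of peaks in all 4 libraries, 4 and 1. GARS varied most, with 1 and 4 peaks after tunicamycin and 4 and 1 after DMSO.

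The regional background around the WARS promoter was higher after tunicamycin in a comparison added after the values had been seen, and the call was lost under 3 of its alternatives. The background is the number of reads per position that the peak caller expected around a peak; it follows from the authors' fold and p-value, and the span over which the caller took it is not given in the sources used here. Around the main WARS peak it was 1.64 and 1.81 reads per position after tunicamycin and 1.29 and 1.11 after DMSO, a mean of 1.72 ± 0.117 and 1.20 ± 0.125 (SD, n = 2 each) and a ratio of 1.44. Ranked over the 40447 common regions, this background stood at 93.8 and 93.3 after tunicamycin and 88.0 and 81.7 after DMSO, with no overlap. The score difference was 0.479 ± 0.0916 (SE, limma adjusted p = 0.000534). The peak at -1640 bp and the narrow one near -758 bp had nearly the same background, 1.64 to 1.78 in the tunicamycin lists that held them and 1.12 to 1.3 in the DMSO lists. The distal WARS region had 0.320 and 0.341 after tunicamycin and 0.312 and 0.329 after DMSO, with an adjusted p of 0.999 by limma.

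WARS was 1 of 20 common regions called in this comparison (5.0%), where 1.58% of all common regions were called (298 higher and 340 lower). Neighbouring regions share their background, so calls are not independent. The WARS call was lost without DMSO replicate 2 (adjusted p = 0.0672) with one prior spread for all regions (adjusted p = 0.381) and on the log2 ratio to the genome-wide background (adjusted p = 0.439). AARS had 1.49 and 1.67 reads per position after tunicamycin and 1.23 and 1.3 after DMSO (adjusted p = 0.153 by limma). SARS had 0.823 and 1.04 after tunicamycin and 0.645 and 0.774 after DMSO (adjusted p = 0.170). Both were higher in each treated library but were not called. The other 5 main promoters had overlapping backgrounds in reads per position, and adjusted p-values of 0.627 to 0.988 by limma. In rank, the NARS background was lower in both treated libraries, at 66.9 and 66.2 after tunicamycin and 75.1 and 67.7 after DMSO. Its score difference was -0.142 ± 0.105 (SE), and it was not called. A higher background lowers the fold of a peak of the same height: the WARS promoter fold was 18.6 and 17.8 after tunicamycin and 20.5 and 19.4 after DMSO.

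**Figure D5:**
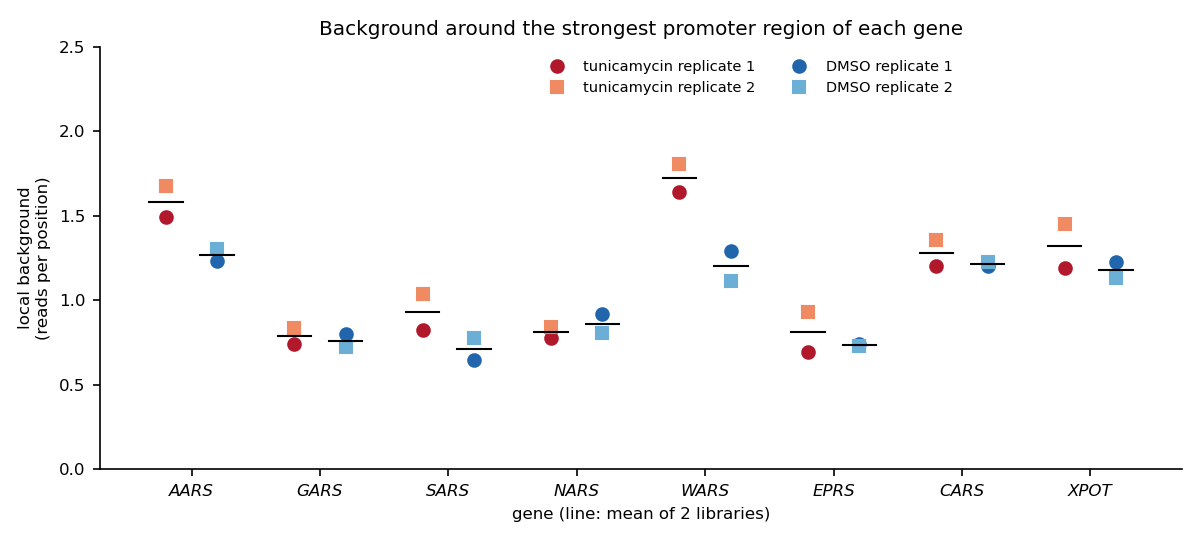
Reads per position that the peak caller expected around the main promoter region of each gene, with 1 point per library and a line at the mean of each group of 2. At WARS the tunicamycin points (1.64 and 1.81) lie above the DMSO points (1.29 and 1.11), and AARS and SARS show a smaller gap of the same direction.

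Summits of the main promoter peaks spanned 8 bp over the 4 libraries at WARS, 16 bp at GARS, 31 bp at XPOT, 33 bp at AARS, 36 bp at SARS and CARS and 47 bp at EPRS. NARS was the exception with 103 bp, because the summit of tunicamycin replicate 2 stood apart from the other three. Genes beside the 8 were named from the GRCh38.p14 table without coordinates. The next protein-coding gene upstream was DDX19B for AARS, GGCT for GARS, ELAPOR1 for SARS, ATP8B1 for NARS, WDR25 for WARS, BPNT1 for EPRS, OSBPL5 for CARS and C12orf56 for XPOT. DDX19B, WDR25 and C12orf56 lie on the strand opposite to AARS, WARS and XPOT, so these pairs are transcribed away from each other, and a region between them is not assigned to one gene here. The strands of GGCT, ATP8B1 and BPNT1 were not analysed here, so GARS, NARS and EPRS may or may not form such pairs. No annotation of hg19 was used, and regions are not assigned to exons or introns.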

How the data were processed

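ATAC-seq peak lists of 4 libraries were used. Per the submitters' processing notes, the genome build was hg19, the named tools include MACS2 2.2.7.1, and Bowtie2 2.3.5.1, Picard 2.18.23, Trim Galore, deepTools and SAMtools are also named. How they were run, and whether reads were shifted for the transposase, is not given in these sources. The authors deposited 1 list per library with a score, a fold (a ratio of summit to local background), −log10 p- and q-values and the summit distance. The deposited score repeats the −log10 q-value on a coarser scale and was not used. Read totals are unknown.

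Peaks sharing 1 bp were merged (Python 3.11.15, pandas 2.3.3, numpy 2.4.6, scipy 1.17.1), and the best q-value per library and region was ranked over regions listed in all 4. The ranks were turned into normal scores and tested by limma 3.58.1 under R 4.3.3; its prior spread was allowed to follow the mean, and Benjamini-Hochberg adjusted p-values under 0.05 were called. Summit reads and local background were solved from the fold and −log10 p-value as a Poisson tail, within 0.001 for every peak; the genome-wide background was 0.140 and 0.143 reads per position in tunicamycin and 0.140 and 0.147 in DMSO libraries. The fit and the merging were tested on simulated data.

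The named regions are all promoter regions, the gained and called regions and the 3 largest rank differences each way. Genes, lists and tests were chosen with earlier results of these data known, and the local background comparison was added after its values were seen. The other cytosolic synthetases were not analysed here for peaks, as no hg19 starts were used for them.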

Additional observations from a re-analysis of the deposited data

How the results depend on the processing

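Across the 10 alternatives, 0 of the common regions near the 8 genes were called in rank in any of them, with smallest adjusted p-values between 0.269 and 0.757. Over all regions the rank test called 0 when peaks were ranked by fold or with one prior spread for all regions, 35 with the replicate block, and 4 to 27 with each library left out. Of 80 recomputed differences of the 8 main promoters, 73 kept their direction. Ranked by fold, AARS turned to -0.111 and WARS moved to -0.398. Leaving out each library gave -0.0716 to 0.292 for AARS and -0.577 to 0.0263 for SARS. It gave -0.248 to 0.0235 for WARS and -0.0615 to 0.375 for CARS. With no change of direction, it gave 0.193 to 0.416 for GARS and 0.201 to 0.440 for EPRS. The same held for NARS (-0.753 to -0.692) and XPOT (-0.454 to -0.127). The 2 gained and 0 lost regions were the counts under the other settings too, except 3 gained in a 50 kb window; leaving out each library, which loosens the definition, gave 2 to 6 gained (all regions: 7.88% to 12%) and 0 to 1 lost (all regions: 3.92% to 6.88%), with 6 gained without tunicamycin replicate 1, and 1 lost without that library or without DMSO replicate 1. The difference in number of peaks was 4.5, 1.5 to 7.5 with each library left out, 2 with lists of equal length and 8.5 in windows of 50 kb.

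The WARS background difference was 0.479. It was not called with one prior spread (0.479, adjusted p = 0.381) or as the log2 of the local over the genome-wide background (0.54, adjusted p = 0.439); under each of these, 0 of the 20 regions and 0 of all regions were called. With each library left out it was 0.345 to 0.614, 0 or 1 of the 20 was called, and 303 to 508 regions were called in all. These alternatives were chosen after seeing the data. The causes were not tested. The replicate numbers share only a number: the correlation of same-numbered deviations was 0.0111. The replicate block gave a WARS difference of 0.479 (adjusted p = 2.79e-05) and changed no call near the genes. With 2 libraries a group and summits of 5 to 79 reads, small differences are not detectable.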

Other observations

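The same core of the C/EBP-ATF response element was searched in promoters of 16 other genes of the cytosolic synthetase set and its complex, of which 12 matched the RefSeq table (16 promoters). DARS, LARS, VARS and YARS were not matched. The letters TGATGNAA were found in 3 of these 16 promoters (3.62% of all promoters), 1 each of IARS1, MARS1 and TARS1, the isoleucyl, methionyl and threonyl enzymes. All 3 carry TTGCATCA on the printed strand, the same 8 letters as AARS1 and CARS1, within 13 bases of the start: the first base lies at -13 in IARS1, -4 in MARS1 and 2 in TARS1. The cAMP response element TGACGTCA was in 1 of the 16 promoters (1.85% of all). This is a description of sequence, and accessibility at these genes was not analysed here.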
